A study of Mus musculus with 4 samples.

Results

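The genes described here are those of the major histocompatibility complex (MHC) and of antigen presentation in mouse bone marrow stem and progenitor cells. They were chosen by name: every symbol that starts with H2-, and Cd74, B2m, Ciita, Nlrc5, Tap1, Tap2, Tapbp, Tapbpl, Erap1, Calr, Canx and Pdia3. The rule gave 46 of the 32285 genes counted, and 34 of these 46 reached 1 CPM (UMIs of a gene, scaled by the total UMIs of the library) in at least 1 library, among 12500 genes that did so. The 34 comprised 10 genes of the class II pathway, 13 of class I, 8 of peptide loading, the transactivators Ciita and Nlrc5, and H2-Ke6, an enzyme gene that carries the prefix only because it lies in the complex. The other 12 were all class I genes. Of these, 8 had no UMI in any library, and H2-Q2 had the most UMIs: 63 in the library with Ikk2-CA alone, 9 in the double mutant, 2 with Jak2 V617F alone and 1 in the control.

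MHC class I molecules are heavy chains paired with beta-2 microglobulin, encoded by B2m. They display peptides from inside the cell on almost every nucleated cell, after the Tap1-Tap2 transporter, tapasin (Tapbp) and the chaperones calreticulin, calnexin and Pdia3 have loaded them. MHC class II molecules are pairs of an alpha and a beta chain that display peptides from endosomes, mainly on dendritic cells, macrophages and B cells. The invariant chain Cd74 guides them, H2-DM exchanges their peptides, H2-O restrains H2-DM, and Ciita switches the class II genes on. Class II has also been found at low level on mouse haematopoietic stem cells.

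The study sorted Lin- Sca-1+ Kit+ (LSK) cells, a compartment of blood stem cells and their earliest progeny, from mice of 8 to 12 weeks and made 1 single-cell RNA library per genotype, each from the pooled marrow of 5 mice. All 4 genotypes carried Vav1-iCre, a recombinase driven in blood cells: the control carried Vav1-iCre/+ alone, 1 group added 1 Ikk2-CA allele, another 1 Jak2 V617F allele, and the double mutant both. Ikk2-CA encodes an always-active I-kappaB kinase, the upstream switch of NF-kappaB, and Jak2 V617F is the activating kinase mutation of myeloproliferative neoplasms. The crosses also brought in an NF-kappaB EGFP reporter from an FVB strain, and the Cre line is on a C57BL/6 background. Which MHC haplotype each pool carried is not given in the sources used here. For every member inside the complex, of class I or class II, genotype and haplotype therefore cannot be told apart.

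After filtering, the libraries held 5268 to 14156 cells, 102362297 to 197836491 UMIs and a median of 10606 to 24915 UMIs per cell, the control being the shallowest and the double mutant the deepest. Pairs of libraries shared 16 to 64 cell barcodes, at most 0.6196% of the smaller. The sort genes were present, with Kit at 148.8, 87.56, 174.7 and 93.47 CPM and Ly6a, which encodes Sca-1, at 106.0, 233.1, 138.2 and 191.2 CPM in the libraries of the control, of Ikk2-CA, of Jak2 V617F and of the double mutant, the order kept for every set of 4 values here. The NF-kappaB target Nfkbia stood at 69.88, 325.3, 87.41 and 251.8 CPM, high in both libraries labelled with Ikk2-CA; Ikbkb itself, at 51.53 to 67.27 CPM, does not tell the allele apart from the endogenous gene. Xist, transcribed in female cells, stood at 1176.0, 250.2, 0.2571 and 319.8 CPM, so the make-up of the pools by sex differed, and values from cells with no Xist UMI are given for the class II genes and Ciita where they turn a direction against the control. With 1 library per genotype no difference has a replicate check and no p-value is given: intervals are exact 95% limits that cover the counting of UMIs or of cells only. A gene was called higher or lower past a 1.5-fold ratio of CPM. In these sums over cells, fewer cells of a type and less RNA per cell cannot be told apart.

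With Ikk2-CA alone, 9 of 34 members were called higher than in the control and 3 lower, where 6.12% of all genes were called higher and 23.4% lower. The 9 were Cd74, H2-Aa, H2-Ab1, H2-Eb1 and H2-Eb2 of class II, and H2-D1, H2-Q1, H2-Q10 and H2-T3 of class I. The 3 were H2-Ob, H2-T23 and Tap2. Of the 9, H2-Q1 and H2-Eb2 reached 1 CPM only in Ikk2-CA, and H2-T3 only in the 2 libraries with Ikk2-CA. Their higher calls are thus partly set by the filter. With the filter at 10 CPM in any library, 5 members were called higher. The median gene had a log2 ratio of -0.28 in this comparison. Measured against that gene, 12 members were called higher (10.3% of all genes) and 1, H2-Ob, lower (10.6%). The class II genes had a median log2 ratio of 0.77 (n = 10 genes), class I 0.23 (n = 13) and peptide loading -0.16 (n = 8).

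With Jak2 V617F alone the members stayed close to the control. Of 33 compared, 2 were called higher (2.59% of all genes) and 1 lower (4.01%): H2-Q10 and H2-T3, both of few UMIs, and H2-Ob. Against the median gene it was 2 higher (2.65%) and none lower (3.87%). The median log2 ratio was 0.01 for class II, -0.03 for class I (n = 12) and -0.08 for peptide loading, beside -0.01 for all genes.

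In the double mutant, 5 members were called higher than in the control (3.01% of all genes) and 3 lower (24.4%). Cd74, H2-Eb1, H2-Q1, H2-Q10 and H2-T3 were the higher ones, and H2-Ob, H2-DMb2 and H2-T24 the lower ones. H2-T3 passed the filter only through the 2 libraries with Ikk2-CA. With the filter at 10 CPM in any library, 2 members were called higher. The class II median was -0.17 on the log2 scale and turned to 0.13 when measured against the median gene, which lay at -0.30. Against the median gene, 8 members were called higher (8.19% of all genes) and 1 lower (9.6%). Set against the Ikk2-CA library, 10 members were called lower (7.94% of all genes) and none higher (4.24%), and 6 of the 10 were class II genes. Those 6 were Cd74, H2-Aa, H2-Eb1, H2-Eb2, H2-DMb2 and H2-Ob. The other 4 were Ciita, H2-Q1, H2-Q10 and H2-T24. H2-Eb2 and H2-Q1 passed the filter only through Ikk2-CA, so their lower calls are partly set by it. With the filter at 10 CPM in any library, 4 members were called lower. Set against the Jak2 V617F library, 4 were called higher (2.41% of all genes), which were Cd74, H2-D1, H2-Q1 and H2-T3, and 3 lower (22.2%), which were H2-Ob, H2-Eb2 and H2-T24. Against the median gene, at -0.29, it was 5 higher (6.26%) and 2 lower (6.95%). These comparisons share libraries, the control in particular, and are not independent of each other.

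**Figure D1:**
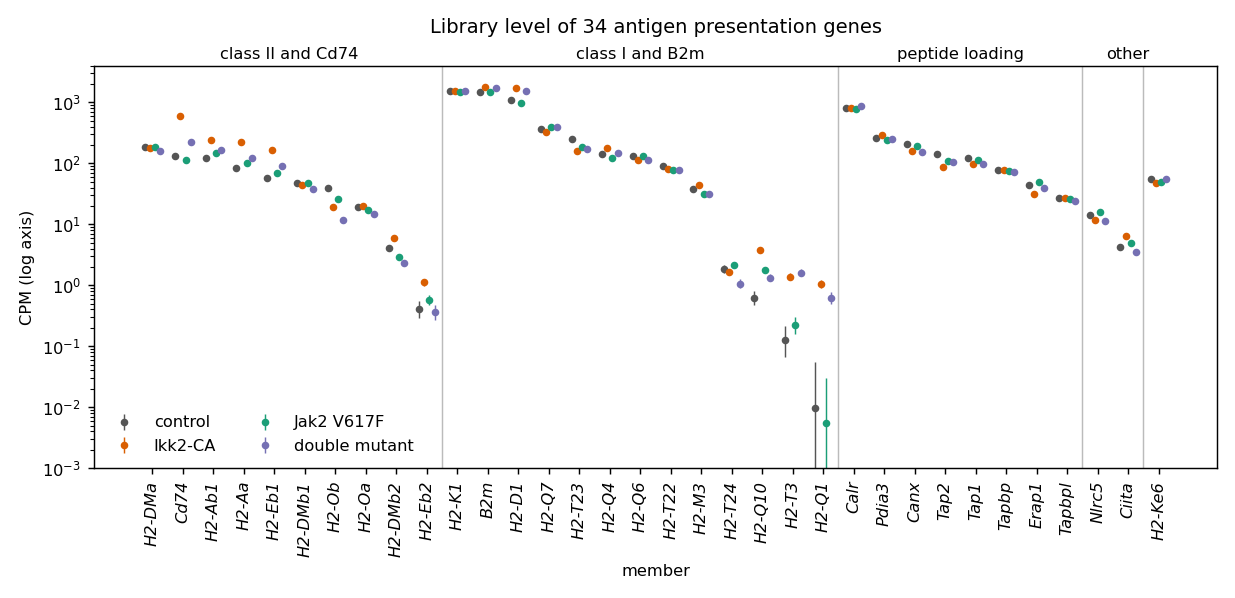
Level of each of the 34 members in the 4 libraries, in CPM on a log axis, with exact 95% counting intervals as vertical lines (1 library per genotype; where no line shows, it is shorter than the point). Cd74, H2-Aa, H2-Ab1 and H2-Eb1 are highest in Ikk2-CA with the double mutant second, H2-D1 is high in the same pair of libraries, H2-K1 is level across all 4, and H2-Q1 is near 0 in the control and Jak2 V617F libraries.

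The invariant chain gene Cd74, which guides class II molecules to endosomes, stood at 132.9, 593.2, 111.6 and 225.2 CPM. It was 4.462 times the control in Ikk2-CA (95% interval 4.383 to 4.542), 0.8391 times in Jak2 V617F and 1.694 times in the double mutant. The double mutant therefore lay between the control and Ikk2-CA, at 0.3796 times the latter (0.375 to 0.3844).

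The genes of the class II chains were likewise highest in Ikk2-CA, with the double mutant second, but unlike Cd74 they were lowest in the control. H2-Aa, the alpha chain of the I-A molecule, stood at 82.41, 225.1, 99.68 and 120 CPM, its partner H2-Ab1 at 123.0, 241.0, 147.6 and 164.6 CPM, and H2-Eb1, the beta chain of the I-E molecule, at 57.75, 167.3, 69.57 and 90.64 CPM. Ikk2-CA over control was 2.732-fold for H2-Aa, 1.960-fold for H2-Ab1 and 2.897-fold for H2-Eb1. Jak2 V617F over control was 1.210-fold, 1.201-fold and 1.205-fold in the same order, under the 1.5-fold call, and when only cells without a Xist UMI were summed, the log2 ratio of H2-Aa turned from 0.27 to -0.09 and that of H2-Eb1 from 0.27 to -0.03.

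The joint effect of both alleles was smaller than the product of their single effects for these genes. On the log2 scale the double mutant fell short of that product by 1.14 for Cd74 (-1.14), by 1.18 for H2-Aa (-1.18), by 0.81 for H2-Ab1 (-0.81) and by 1.15 for H2-Eb1 (-1.15). Ciita, which drives class II transcription, stood at 4.269, 6.344, 4.869 and 3.530 CPM, with a departure of -1.04. Its log2 ratio of Jak2 V617F over control turned from 0.19 to -0.11 in cells without a Xist UMI. It was 1.486 times the control in Ikk2-CA (1.332 to 1.661) and 0.8268 times in the double mutant (0.7259 to 0.9421). So in the summed double mutant library Ciita lay below the control while Cd74, H2-Aa, H2-Ab1 and H2-Eb1 lay above it. This contrast was not seen within marker gates of cells, which are described further on: Ciita of the double mutant was above the control in all 5 gates compared, from 1.053 times in ungated to 4.033 times in megakaryocyte-like cells, with the interval above 1 in 2 of them. It was 1.385 times the control in stem cell-like cells (0.9344 to 2.056) and 1.957 times in lymphoid-primed-like cells (1.294 to 2.949). The library ratio of Ciita also turned direction, to a log2 value of 0.05, with median-of-ratios size factors. It turned to 0.14 when cells gated as B cell, dendritic, monocyte, macrophage, plasma or T or NK-like were left out. In the other alternatives with a value it stayed negative, from -0.52 in cells without a Xist UMI to -0.03 with TMM factors.

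The accessory genes of the class II pathway did not follow the chains in the library sums. H2-DMa and H2-DMb1, the chains of the peptide exchanger H2-DM, stood at 184.8, 175.0, 182.8 and 159.8 CPM and at 46.87, 44.76, 48.09 and 37.28 CPM. Neither passed 1.5-fold in any comparison of these sums. The log2 ratio of H2-DMb1 in Jak2 V617F over control turned from 0.04 to -0.08 in cells without a Xist UMI. The second beta chain gene H2-DMb2 stood at 4.074, 6.025, 2.938 and 2.335 CPM, so its low values were in the 2 libraries with Jak2 V617F. H2-Oa, the alpha chain of the H2-DM inhibitor, stood at 18.86, 19.86, 17 and 14.49 CPM.

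H2-Ob, the beta chain of that inhibitor, went the other way from Cd74. It stood at 39.04, 19.34, 25.99 and 11.57 CPM, below the control in every mutant library. The ratio to control was 0.4954 (0.4738 to 0.5180) in Ikk2-CA, 0.6658 in Jak2 V617F and 0.2963 (0.2796 to 0.3139) in the double mutant, whose departure from the product of single effects was -0.15. The Ikk2-CA and double mutant ratios to control stayed past 1.5-fold in all alternatives run, but the Jak2 V617F ratio, at a log2 value of -0.59, ranged from -0.73 to -0.49 and passed the call only in part of them. H2-Eb2, a low-level beta chain gene, had 0.4005, 1.112, 0.5745 and 0.3657 CPM, high in Ikk2-CA alone. In cells without a Xist UMI its log2 ratio to control went from 1.47 to 0.71 in Ikk2-CA, from 0.52 to -0.09 in Jak2 V617F and from -0.13 to -0.94 in the double mutant.

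Promoters of 26 of the 34 members were found in RefSeq (GRCm38.p6), each as 250 bases before to 50 after the annotated start. Those of Cd74, Ciita, H2-Ab1, H2-Q1, H2-T24, Nlrc5, Tap2 and Tapbpl were not found and not searched. Letters of 4 motifs were searched on both strands: a kappa-B site GGGATTCCC, the Y box CTGATTGG, the X box core TAGCAAC and the core of an interferon response element, GAAANNGAA. The following class II stretches lie directly upstream of the gene starts, 5′ to 3′ on the gene's strand, and are shown because H2-Aa and H2-Eb1 rose with Ikk2-CA while H2-Ob fell. Capitals mark the X box or Y box letters. H2-Aa lies at chr17:34287824-34287973 (minus strand), H2-Eb1 at chr17:34305717-34305866 (plus) and H2-Ob at chr17:34238755-34238904 (plus).
H2-Aa: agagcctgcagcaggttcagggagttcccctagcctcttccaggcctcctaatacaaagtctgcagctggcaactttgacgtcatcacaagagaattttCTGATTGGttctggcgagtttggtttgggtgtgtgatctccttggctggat
H2-Eb1: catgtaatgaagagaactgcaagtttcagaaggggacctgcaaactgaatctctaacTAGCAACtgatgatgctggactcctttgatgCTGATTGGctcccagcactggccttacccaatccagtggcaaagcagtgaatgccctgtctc
H2-Ob: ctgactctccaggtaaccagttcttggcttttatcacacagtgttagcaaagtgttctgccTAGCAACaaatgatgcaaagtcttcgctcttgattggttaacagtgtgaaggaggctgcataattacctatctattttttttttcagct
H2-Eb1 and H2-Ob, which moved in opposite directions, both held the X box letters, as did H2-Eb2. These were found in 3.66% of 32851 promoters. The Y box letters were in 4 of 8 class II, 5 of 11 class I and 2 of 6 loading gene promoters, beside 4.1% of all. No kappa-B letters were in the 8 class II windows, which says only that these exact letters are not there. Cd74 and H2-Ab1 were not among the 8.

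A few cells supplied much of the class II RNA of the control. The 1% of cells with the most H2-Aa UMIs held 50.32% of them in the control, 25.12% in Ikk2-CA, 25.93% in Jak2 V617F and 10.29% in the double mutant. For Cd74 the shares were 63.60%, 21.71%, 41.21% and 12.59%, whereas for the class I gene H2-D1 they were 3.174% to 3.644%. Cells were therefore also gated by marker genes: a cell of at least 5000 UMIs, thinned to 5000, joined a gate with at least 3 distinct markers of it and more than of any other of 14 gates. Cells gated as conventional dendritic-like, which numbered 16, 26, 23 and 1, held 25.66%, 8.130%, 11.30% and 0.9612% of H2-Aa UMIs. Their Cd74 level, 13053.7, 17904.9, 14896.4 and 19750.5 CPM, was far above the library level everywhere. The sort included antibodies against lineage markers, so these were cells that passed it or shared a droplet with one; which of these applied was not tested.

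**Figure D2:**
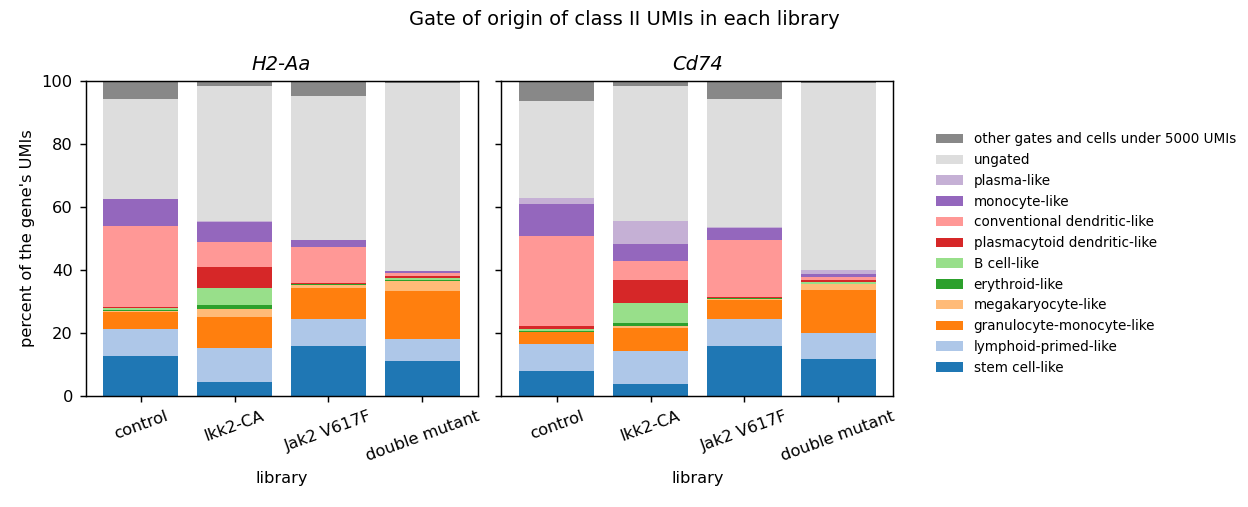
Share of the UMIs of H2-Aa (left) and Cd74 (right) that came from each marker gate in each library, in percent, as stacked bars that sum to 100. The conventional dendritic-like gate holds 25.66% of H2-Aa UMIs in the control and 0.9612% in the double mutant, where ungated cells hold 59.48%.

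Leaving out cells gated as B cell, dendritic, monocyte, macrophage, plasma or T or NK-like made the difference larger for Cd74, H2-Aa, H2-Ab1 and H2-Eb1. The log2 ratio of Ikk2-CA over control went from 2.16 to 2.70 for Cd74, from 1.45 to 1.94 for H2-Aa, from 0.97 to 1.31 for H2-Ab1 and from 1.53 to 2.16 for H2-Eb1. The same ratio became smaller for H2-DMb2, from 0.56 to 0.33, and for H2-Eb2, from 1.47 to 1.37. For the double mutant over control, Cd74 went from 0.76 to 1.5 and H2-Aa from 0.54 to 1.12. For Jak2 V617F over control, Cd74 turned from -0.25 to 0.18, and H2-Aa went from 0.27 to 0.68, past 1.5-fold. These sums were not repeated in cells without a Xist UMI.

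The stem cell-like gate, set by Hlf, Mecom, Procr and similar genes, held 1089, 456, 2046 and 460 cells. In it Cd74 stood at 100, 838.9, 151.7 and 456.3 CPM and H2-Aa at 98.75, 370.9, 135.5 and 226.0 CPM. All 3 mutants were above the control, in the order Ikk2-CA, double mutant, Jak2 V617F. Cd74 was 8.386 times the control in Ikk2-CA (7.846 to 8.968) and 4.561 times in the double mutant (4.262 to 4.884). Of 8 class II members at 10 CPM or more in this gate, 5 were called higher in Ikk2-CA, namely Cd74, H2-Aa, H2-Ab1, H2-Eb1 and H2-Oa, and 1, H2-Ob, lower, where 3.71% and 9.56% of all genes were. Their median log2 ratio was 1.24, beside -0.16 over all genes. Jak2 V617F called 3 of 8 higher (1.89% of all genes) and none lower (2.03%), with a median of 0.28, and the double mutant 4 higher (2.24%) and 1 lower (12.3%), with a median of 0.65. No gate level or per-cell share was recomputed in cells without a Xist UMI. In library sums of such cells, log2 ratios of Jak2 V617F over control were -0.53 for Cd74, -0.09 for H2-Aa, -0.03 for H2-Eb1 and 0.05 for H2-Ab1. The gate rests on few markers per cell: 598, 263, 1236 and 319 of its cells had exactly 3, and taking cells with 2 would have added 301, 205, 826 and 264.

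In the lymphoid-primed-like gate, set by Flt3, Dntt, Il7r and similar genes and holding 1284, 804, 1239 and 282 cells, Cd74 stood at 71.59, 862.5, 110.6 and 374.6 CPM. The ratio of Ikk2-CA to control was 12.05 (11.35 to 12.80). H2-Aa stood at 44.08, 334.2, 97.26 and 173.7 CPM, again in the order seen in stem cell-like cells. In granulocyte-monocyte-like cells, set by Elane, Mpo and Prtn3 among others, Cd74 stood at 21.76, 160.6, 29.20 and 97.25 CPM, and in megakaryocyte-like cells at 13.05, 128.1, 8.058 and 80.09 CPM. The order of the 2 libraries without Ikk2-CA was thus reversed in the last gate. Over the 7 gates with at least 50 cells in both libraries, ungated cells counted as one, Ikk2-CA over control ranged from 7.311 (ungated) to 29.28 (erythroid-like) for Cd74 and from 3.756 (stem cell-like) to 15.43 (erythroid-like) for H2-Aa.

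Erythroid-like cells, a type not known for class II expression, served as the cells to compare with. Their Cd74 stood at 4.026, 117.9, 13.62 and 26.33 CPM (147, 228, 195 and 22 cells), so the Ikk2-CA library showed a raised level there too, as it did there for Ciita, at 2.906 CPM (19 UMIs) against 0.2517 CPM (1 UMI) in the control. Within Ikk2-CA the H2-Aa level of granulocyte-monocyte-like cells, 83.95 CPM (81.50 to 86.45), did not exceed that of erythroid-like cells, 89.31 CPM (82.21 to 96.86), while stem cell-like and lymphoid-primed-like cells, at 370.9 and 334.2 CPM, did. B cell-like cells, at 93.94 CPM (90.12 to 97.88), were within counting error of it. Cd74 did not follow H2-Aa in this: it was higher in granulocyte-monocyte-like cells, at 160.6 CPM (157.2 to 164.0), and in B cell-like cells, at 311.3 CPM (304.3 to 318.4), than in erythroid-like cells, at 117.9 CPM (109.7 to 126.5). The number of Cd74 UMIs per H2-Ab1 UMI in the Ikk2-CA library was 0.8390 in erythroid-like, 1.308 in granulocyte-monocyte-like, 1.652 in B cell-like, 2.678 in stem cell-like and 2.804 in lymphoid-primed-like cells. The genes were thus not in 1 ratio across gates. How much of the low-level class II signal, in erythroid-like cells or others, came from free RNA was not tested.

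H2-Ob followed its own order within gates as well. It stood at 22.43, 10.13, 18.88 and 11.25 CPM in stem cell-like cells, at 84.80, 59.64, 53.98 and 35.34 CPM in lymphoid-primed-like cells and at 23.09, 8.657, 19.49 and 7.270 CPM in granulocyte-monocyte-like cells. In each of these gates the control was highest. Ikk2-CA lay below the control in all 7 gates compared, with the interval of the ratio below 1 in 5 of them, and the double mutant below it in 5 of 5. The fall in the double mutant relative to Ikk2-CA did not hold in stem cell-like cells, where the ratio was 1.11, the highest of 5 gates. H2-DMa in stem cell-like cells stood at 191.0, 196.0, 183.1 and 182.5 CPM, with ratios to control of 1.026 in Ikk2-CA and 0.9552 in the double mutant. H2-Oa of Ikk2-CA was above the control in 7 of 7 gates, from 1.022 times (granulocyte-monocyte-like) to 3.947 times (megakaryocyte-like). The interval was above 1 in 6 of them. H2-Oa of the double mutant was below Ikk2-CA in 5 of 5 gates and above the control in 2 of 5.

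**Figure D3:**
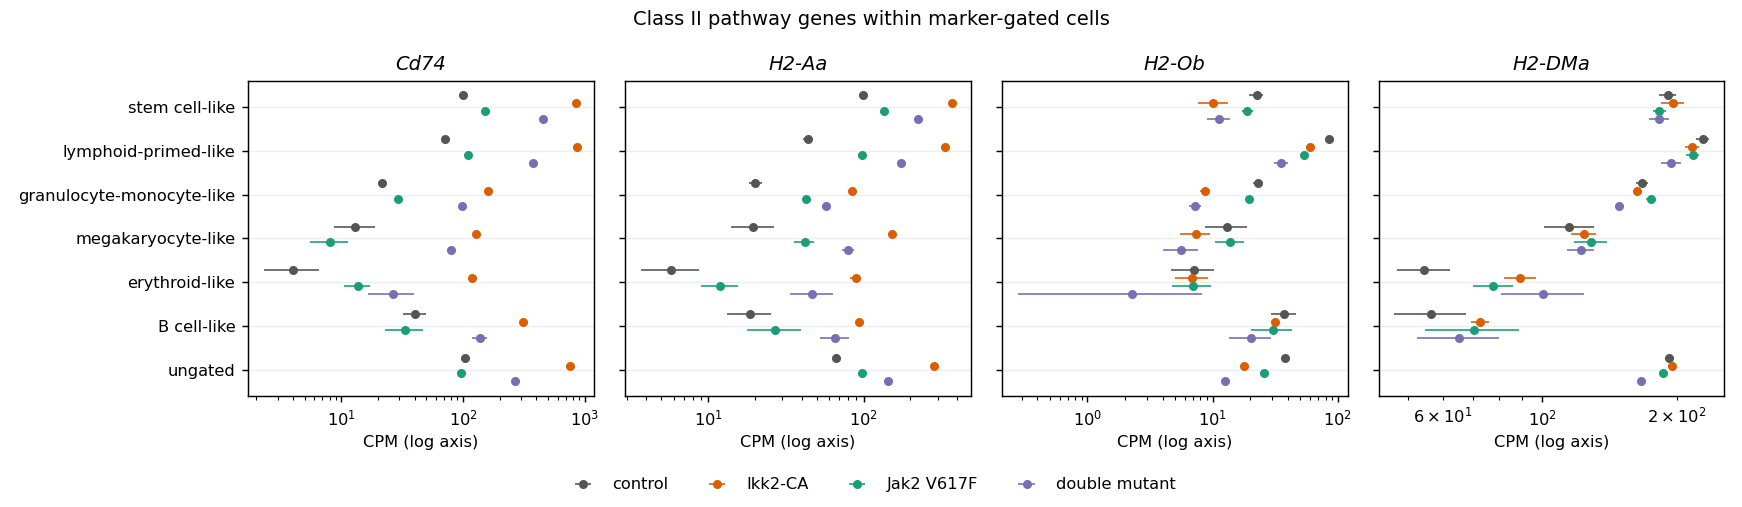
Levels of Cd74, H2-Aa, H2-Ob and H2-DMa within 6 marker gates and ungated cells, in CPM on log axes of different range, 1 point per library with its exact 95% counting interval (gates of at least 20 cells shown). Cd74 and H2-Aa are highest in Ikk2-CA in every gate drawn with the double mutant second, H2-Ob is lower in Ikk2-CA and the double mutant than in the control in stem cell-like cells, and H2-DMa is nearly level there.

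Counted per cell, the difference extended over most cells of the stem cell-like gate. After thinning each cell to 5000 UMIs, 49.26%, 78.03%, 60.74% and 72.98% of cells had at least 1 UMI of H2-Aa, H2-Ab1, H2-Eb1 or Cd74. Without thinning the shares were 72.40%, 95.33%, 81.08% and 96.00%, which follow depth as well. Cells under 5000 UMIs, left out of both, numbered 838, 405, 1361 and 146. In the stem cell-like gate the thinned shares were 58.49% (exact binomial interval 55.50 to 61.44), 94.30% (91.76 to 96.24), 69.79% (67.75 to 71.78) and 85.22% (81.64 to 88.33). These intervals cover the counting of cells within 1 library and not the spread between mice. The share in erythroid-like cells was 17.69%, 63.16%, 33.33% and 54.55%, the last from 22 cells, with median depths of 21431, 22134, 22729 and 38126.5 UMIs against 8656, 10938.5, 8366 and 15369.5 in stem cell-like cells. Granulocyte-monocyte-like cells of Ikk2-CA, at 65.08% (62.98 to 67.14), did not differ beyond counting error from erythroid-like cells of that library, at 63.16% (56.54 to 69.43), so no expression is read from that share, although their Cd74 level was the higher one. In the control the 2 shares were 38.74% and 17.69%. The median stem cell-like cell had 1, 7, 1 and 3 class II UMIs per 5000. Those with 20 or more made up 0.3673%, 13.82%, 0.8309% and 5.870%.

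**Figure D4:**
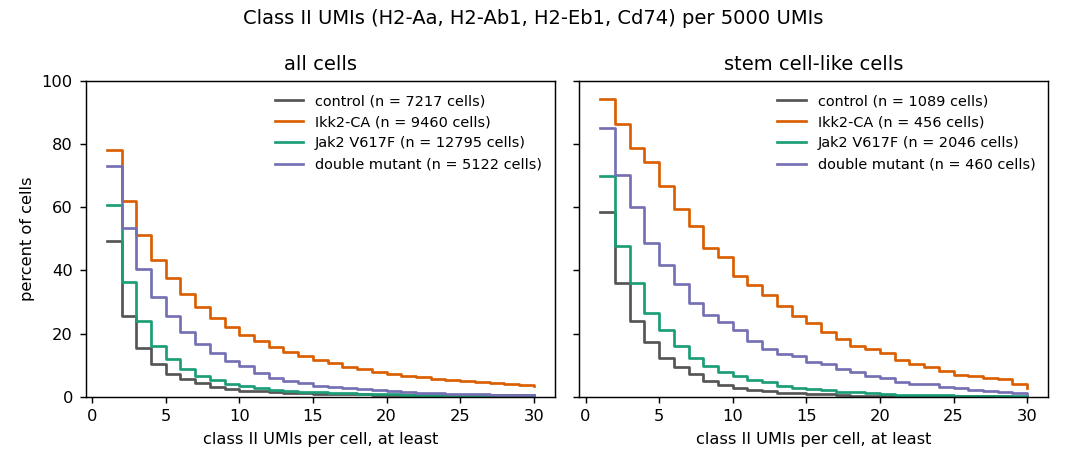
Percent of cells (vertical axis) with at least a given number of class II UMIs (H2-Aa, H2-Ab1, H2-Eb1 and Cd74 together) per cell thinned to 5000 UMIs (horizontal axis), for all cells and for stem cell-like cells, 1 line per library. Both panels show the order Ikk2-CA, double mutant, Jak2 V617F, control at low UMI numbers, with 94.30% of Ikk2-CA and 58.49% of control stem cell-like cells at 1 UMI or more.

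Among class I genes the 2 classical heavy chains differed from each other. H2-D1 stood at 1073.4, 1751.8, 982.8 and 1509.6 CPM, high in both libraries with Ikk2-CA. H2-K1 stood at 1524.0, 1523.5, 1468.1 and 1529.3 CPM. The ratio of Ikk2-CA to control was 1.632 (1.621 to 1.643) for H2-D1 and 0.9997 (0.9936 to 1.006) for H2-K1, and that of the double mutant to Jak2 V617F was 1.536 and 1.042. B2m, the shared light chain, stood at 1460.6, 1783.2, 1456.4 and 1704.6 CPM, 1.221 times and 1.167 times the control in the Ikk2-CA and double mutant libraries. The direction of H2-K1 depends on the scale: with TMM factors it lay above the control in both, at log2 ratios of 0.24 and 0.25, where H2-D1 lay at 0.95 and 0.74.

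The promoters of these class I genes are shown because the chains share their kappa-B letters and yet differed in response. Capitals mark GGGATTCCC, found in 0.353% of all promoters and, among members whose promoter was found, in H2-D1, H2-K1, H2-Q6 and H2-Q7. The stretches of 110 bases are aligned at that motif, read 5′ to 3′ on the gene's strand, and lie upstream of the RefSeq starts at chr17:35262904-35263013 (plus) for H2-D1, chr17:34000368-34000477 (minus) for H2-K1 and chr17:35439003-35439112 (plus) for H2-Q7.
H2-D1: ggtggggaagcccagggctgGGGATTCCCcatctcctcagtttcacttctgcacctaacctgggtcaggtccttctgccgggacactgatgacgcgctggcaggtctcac
H2-K1: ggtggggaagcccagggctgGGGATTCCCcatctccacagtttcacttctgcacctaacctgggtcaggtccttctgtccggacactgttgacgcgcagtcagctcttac
H2-Q7: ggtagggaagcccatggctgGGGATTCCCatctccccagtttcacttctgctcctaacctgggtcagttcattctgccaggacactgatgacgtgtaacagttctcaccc
H2-D1 and H2-K1 had the same base at 102 of the 110 positions (92.73%), with the motif whole in both. The interferon response element letters, found in 8.56% of promoters, were in those of B2m, H2-T22, H2-T23 and Erap1, and in none of these 3. This says only that these exact letters, at this spacing, are absent from the 3 windows. Related letters at another spacing were not searched. These are reference sequences of C57BL/6J, and the alleles of the pooled mice may differ from them.

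Within gates H2-K1 was not as level as in the library sums, but its ratio of Ikk2-CA to control was below that of H2-D1 in each of the 7 gates. H2-D1 in stem cell-like cells stood at 1217.9, 2153.0, 1058.9 and 1646.9 CPM and H2-K1 at 1915.9, 2137.5, 1717.4 and 1832.6 CPM. Over 7 gates Ikk2-CA over control ranged from 1.504 (B cell-like) to 2.010 (erythroid-like) for H2-D1. For H2-K1 it ranged from 1.000 (ungated) to 1.780 (erythroid-like), with ratio and interval above 1 in 6 of 7 gates. In stem cell-like cells it was 1.116 (1.091 to 1.141), beside 1.768 (1.724 to 1.812) for H2-D1, and in the erythroid-like gate both genes were well above the control. B2m was above the control in all 7 gates, by 1.249 to 1.692 times. The double mutant lay below Ikk2-CA for H2-D1 in 5 of 5 gates, at 0.7649 to 0.8877 times.

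**Figure D5:**
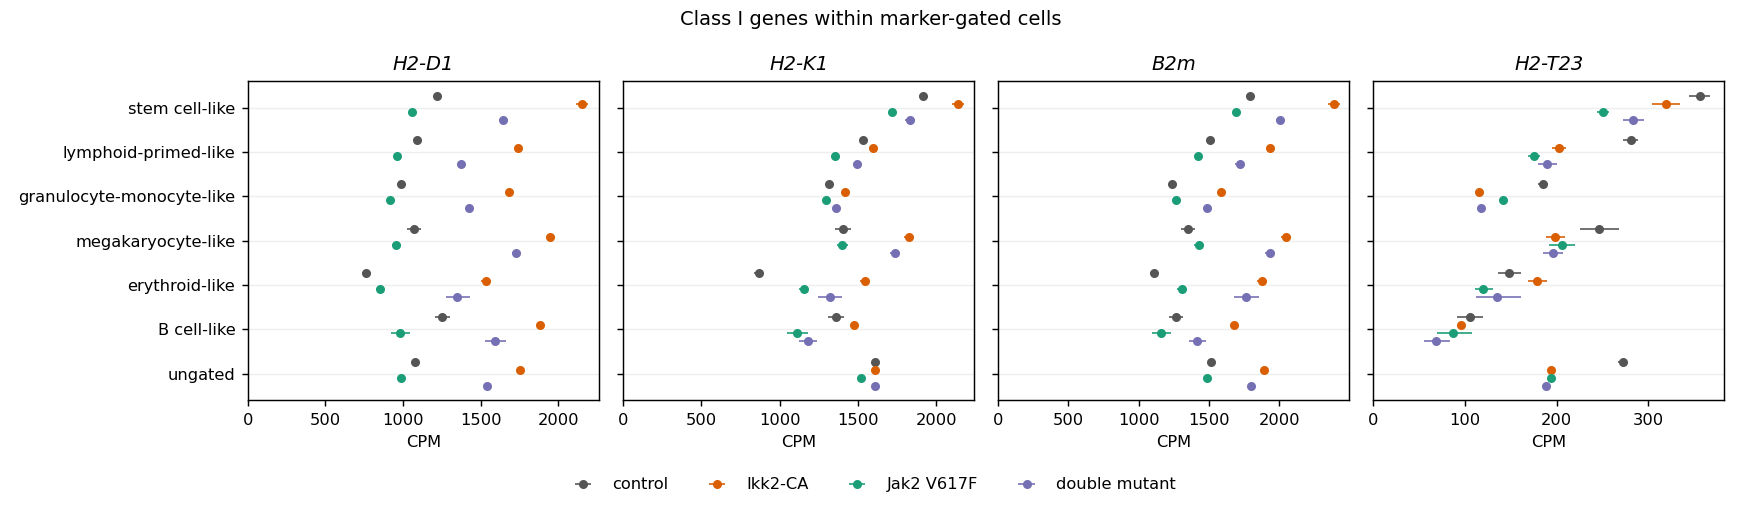
Levels of H2-D1, H2-K1, B2m and H2-T23 within 6 marker gates and ungated cells, in CPM on linear axes that start at 0, 1 point per library with its exact 95% counting interval (gates of at least 20 cells shown). H2-D1 separates the pair of libraries with Ikk2-CA from the other pair in every gate drawn, H2-K1 does so chiefly in megakaryocyte-like and erythroid-like cells, and H2-T23 is highest in the control in stem cell-like and lymphoid-primed-like cells.

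Of the non-classical class I genes, H2-T23, the heavy chain of Qa-1, fell in Ikk2-CA past the 1.5-fold call. It stood at 255.1, 160.9, 188.5 and 170.2 CPM, with the control highest. Its ratio to control was 0.6306 (0.6204 to 0.6411), 0.7391 and 0.6672 (0.6556 to 0.6790), and with TMM factors the log2 ratio of Ikk2-CA went from -0.67 to -0.42, no longer past 1.5-fold. In stem cell-like cells it stood at 356.0, 319.3, 250.8 and 283.4 CPM, where the lowest library was Jak2 V617F and not Ikk2-CA. H2-Q7, a Qa-2 heavy chain, stood at 361.7, 321.5, 399.3 and 398.9 CPM, H2-Q4 at 141.4, 177.7, 124.2 and 147.4 CPM, H2-Q6 at 130.9, 114.8, 132.2 and 114.9 CPM and H2-T22, a ligand of some gamma-delta T cells, at 91.96, 80.34, 76.53 and 78.52 CPM. None of these 4 passed 1.5-fold in any comparison of library sums. Within gates some did. In erythroid-like cells Ikk2-CA over control was 2.122 for H2-Q4, 1.703 for H2-Q6 and 1.628 for H2-T22, but 1.257 for H2-Q7. H2-T22 was at 0.5802 times the control in B cell-like cells of Jak2 V617F. H2-M3, which presents formylated peptides, and H2-T24 stood at 31.28 to 43.81 and at 1.062 to 2.145 CPM.

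Some class I genes of few UMIs had large ratios to the control. H2-Q1, close to absent in both libraries without Ikk2-CA, had 1, 207, 1 and 88 UMIs, spread over 1, 206, 1 and 88 cells and over 10 gates in Ikk2-CA. The ratio to control was 107.1 in Ikk2-CA and 63.34 in the double mutant, with counting intervals of 19.01 to 4250.5 and 11.08 to 2529.9 that follow from the single control UMI. H2-T3, a thymus leukaemia antigen, stood at 0.1270, 1.390, 0.2188 and 1.610 CPM, which gave 10.95 times (6.295 to 20.82) and 12.68 times (7.268 to 24.18) the control. H2-Q10, a secreted class I chain, stood at 0.6252, 3.735, 1.751 and 1.336 CPM, highest in Ikk2-CA and lowest in the control. Genotype and MHC haplotype of the pools cannot be told apart for these genes, for H2-D1 or for any other member inside the complex. Those include the class II chain genes, H2-Ob, H2-K1, H2-T23 and Tap2. Cd74, B2m and Ciita lie on other chromosomes. Reads of near-identical class I copies can also be shared: of the 50-base windows in the last 500 bases of a transcript, 13.5% for H2-Q6, 8.4% for H2-T23, 3.8% for H2-Q4 and at most 0.4% for the other class I members examined occur in another member.

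Peptide loading genes moved little in the library sums. The transporter genes stood at 122.4, 98.05, 113.2 and 96.59 CPM for Tap1 and at 140.9, 88.39, 110.8 and 103.3 CPM for Tap2, with the control highest for both. Tap2 in Ikk2-CA was the only loading gene called in any of the 5 comparisons of library sums, at 0.6275 times the control (0.6137 to 0.6415), and with TMM factors its log2 ratio went from -0.67 to -0.43, no longer past 1.5-fold. In stem cell-like cells Tap2 stood at 135.1, 105.9, 106.3 and 115.9 CPM. Some loading genes passed 1.5-fold within gates. In erythroid-like cells Ikk2-CA over control was 1.812 for Tapbpl, 1.778 for Tapbp and 0.5970 for Canx. In megakaryocyte-like cells Erap1 was 1.607 times the control in Jak2 V617F, and Canx 0.6173 times in the double mutant. Erap1, which trims peptides, stood at 44.79, 31.94, 49.14 and 39.05 CPM. Calr stood at 804.1, 799.6, 792.2 and 886.2 CPM, Canx at 207.5, 158.2, 194.0 and 153.8 CPM and Pdia3 at 263.4, 296.6, 239.2 and 246.2 CPM. Tapbp lay between 70.79 and 78.98 CPM and its relative Tapbpl between 23.89 and 27.42 CPM. Nlrc5, the class I transactivator, stood at 14.38, 11.72, 15.79 and 11.21 CPM, lower in both libraries with Ikk2-CA. Against the median gene its log2 ratio to control was only -0.02 in Ikk2-CA and -0.06 in the double mutant. Within gates its ratio to control was above 1 in 4 of 7 gates for Ikk2-CA and in 0 of 5 for the double mutant.

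A further list of 31 genes of the pathway, such as immunoproteasome subunits, class II promoter factors and endosomal proteases, had 30 members at 1 CPM or more. In Ikk2-CA 8 of 30 were called higher than in the control and 3 lower, beside 6.12% and 23.4% of all genes. In Jak2 V617F it was none and 1, beside 2.59% and 4.01%, and in the double mutant none and 10, beside 3.01% and 24.4%. Against the median gene the counts for Ikk2-CA were 11 and 2, beside 10.3% and 10.6% of all genes, and for the double mutant 5 and 4, beside 8.19% and 9.6%. Ifi30, which reduces disulphide bonds of antigens in endosomes, stood at 14.36, 54.39, 14.10 and 21.47 CPM, and Lgmn, an endosomal protease, at 3.830, 9.093, 3.365 and 2.039 CPM. Both were highest in Ikk2-CA, but in the double mutant Ifi30 stayed above the control and Lgmn fell below it. Irf8, a factor of dendritic and monocyte development, stood at 84.20, 228.6, 59.83 and 47.34 CPM. Cells gated as plasmacytoid dendritic-like, for which Irf8 was a marker, numbered 34, 331, 28 and 16, and monocyte-like cells 29, 305, 46 and 15, so these types were also most numerous in Ikk2-CA; their part in these library levels was not tested. March1, which marks class II for degradation, stood at 0.7718, 1.436, 0.5635 and 0.1125 CPM, and Cd83 at 0.6643, 1.188, 0.2736 and 0.1828 CPM. Both passed the 1 CPM filter only through Ikk2-CA. Mr1, 1 of the 3 called lower in Ikk2-CA, stood at 6.956, 3.078, 5.477 and 2.827 CPM, highest in the control.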

How the data were processed

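The deposited matrices hold UMI counts per gene and cell, made by the authors with Cell Ranger on mm10 (version 4.0.0 per the file headers, 3.0.1 in the series' design text; Seurat 4.0.0 per the submitters' processing notes). Depositions were 1 matrix per genotype. Members and lists were chosen with earlier results of these data known. Cells with 500 to 7500 genes and under 10% mitochondrial UMIs were kept. UMIs were summed per library or gate and scaled to CPM. The filter was 1 CPM in any library, and a call was a ratio past 1.5-fold, with no test, since each genotype has 1 library. Intervals are exact (Poisson, conditional binomial, Clopper-Pearson). The ratio script was tested on simulated data. No doublet caller was run; leaving out the 5% of cells with the most UMIs was an alternative. The 14 gates, thinning to 5000 UMIs and a gate minimum of 50 cells are described in the text. Named genes were the classical class I genes, B2m, all class II members, both transactivators, the loading genes, the 5 most abundant other class I members, members past 2-fold, and up to 4 genes per comparison with control of the further list. H2-Q2, H2-M3 and H2-Ke6 lie outside these rules and were named after their values were seen. Alternative scalings used edgeR 4.0.16 (TMM) and DESeq2 1.42.0 (median-of-ratios size factors) on the summed counts. Python 3.11.15, numpy 2.4.6, scipy 1.17.1 and R 4.3.3 were used. Sequences are from RefSeq, GRCm38.p6. Gene starts and identifiers were taken from GENCODE and the deposited gene lists.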

Additional observations from a re-analysis of the deposited data

Results flagged for a closer look

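H2-Eb2, a low-level class II beta chain gene, had opposite Ikk2-CA effects on the 2 Jak2 backgrounds: its log2 ratio was 1.47 for Ikk2-CA over control and -0.65 for the double mutant over Jak2 V617F. The second value kept its sign but was no longer past 1.5-fold against the median gene (-0.36), with TMM factors (-0.41), with median-of-ratios size factors (-0.34), with gate-standardised sums (-0.18) and with means over cells (-0.23). H2-Q10, a secreted class I chain, had opposite Jak2 V617F effects on the 2 Ikk2 backgrounds: its log2 ratio was 1.49 for Jak2 V617F over control and -1.48 for the double mutant over Ikk2-CA. H2-Eb2 passed the filter only through the Ikk2-CA library, so its rise there is partly set by the filter. Each rests on 1 library per genotype, and neither difference was tested.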

How the results depend on the processing

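No paired analysis was possible because each genotype has 1 library and no replicate numbers. Of 371 values of single members past 1.5-fold, recomputed under the alternatives, 371 kept their sign and 344 stayed past 1.5-fold. Medians of class I and class II genes stayed within their spread over members in 50 of 50 alternatives each. That does not mean a fixed direction. The class II median ranged from -0.36 to 0.18 for the double mutant over control and from -0.23 to 0.10 for it over Jak2 V617F. For Jak2 V617F over control it ranged from -0.09 to 0.13. The loading median of the double mutant over Jak2 V617F moved to 0.21 with median-of-ratios size factors. Counts of called members moved as follows. With TMM or median-of-ratios factors, lower calls became 1 (Ikk2-CA over control), 0 (Jak2 V617F over control) and 1 (double mutant over control), and higher calls in the double mutant over control 8. At 10 CPM or more, higher calls became 5, 0 and 2 against control and 2 against Jak2 V617F, and lower calls 1 (double mutant over control), 4 (over Ikk2-CA) and 1 (over Jak2 V617F). With no filter beyond 3 UMIs, 1 member was higher in the double mutant over Ikk2-CA. The lower call in Jak2 V617F was lost (0) with means over cells and with gate-standardised sums, which left 1 lower in Ikk2-CA. That call was also lost without B cell, dendritic, monocyte, macrophage, plasma and T or NK-like cells, where 4 were higher. In cells with no Xist UMI, 2 were lower in Jak2 V617F, and 3 higher and 5 lower in the double mutant, over control; beside the class II genes and Ciita named above, H2-Q6 in Jak2 V617F over control went from 0.01 to -0.04, and H2-K1 and H2-T23 in the double mutant over Ikk2-CA from 0.01 and 0.08 to -0.01 each. The causes were not tested. Shares of cells with a class II UMI in the control, in Ikk2-CA, in Jak2 V617F and in the double mutant were 38.35%, 69.52%, 49.12% and 62.97% at 3000 UMIs, 72.40%, 95.33%, 81.08% and 96.00% unthinned and 25.69%, 62.05%, 36.50% and 53.57% at 2 UMIs or more; the unthinned order puts the double mutant first. All intervals cover counting error only, so spread between mice is unknown here.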
